A study of Salix linearistipularis with 24 samples.

Results

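In roots of the dioecious willow Salix linearistipularis, 100 transcript clusters were followed. They were picked by a rule for levels highest after 24 h of salinity and near control at 6 h and 12 h. For most the rise at 24 h was small, and 4 were not highest then in both sexes. The 100 were taken from 20753 clusters of a de novo transcript assembly. A cluster (an identifier that starts with CL) groups contigs of similar sequence, and its level here is the sum of its contigs in FPKM, fragments per kilobase of transcript corrected for the mapped fragments of each library. In each sex the group means of 3 libraries were put on the scale log2(mean FPKM + 0.5), and a cluster was kept if its 6 h and 12 h means lay within 1 of the control mean in both sexes. The rise at 24 h was the 24 h mean minus the highest of control, 6 h and 12 h, and the clusters were ranked by a score, the lower rise of the 2 sexes. The 100 with the highest score were taken after CL3595 and CL3276 had been set aside in advance. The members were thus chosen by measured values, the group means in all 8 groups, so the time course within a sex is a description, and counts of calls within a sex are printed below without anything being read from them.

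The libraries came from roots of hydroponic female and male cuttings exposed to 100 mM NaCl for 6 h, 12 h or 24 h, or kept in water as control (CK), with 3 libraries in each of the 8 groups and 24 in all. The labels name 1 female and 1 male individual as the source of all cuttings, while the study's methods describe trees of several populations. If each sex was 1 individual, a difference between sexes cannot be told apart from a difference between those plants. The cuttings were annual shoots, and the replicates of a group were listed as separate samples. Whether they came from separate plants is not known, so the p-values below may not measure a spread between plants. The 24 columns of FPKM summed to between 663314 and 778064, and the number of fragments behind a value was not given by the file. The lowest totals within each sex were those of the 24 h libraries in females and of 6 h replicate 1 and the 24 h libraries in males. The 3 male 6 h libraries differed from each other far more than those of any other group.

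Salinity reaches a root first as a loss of water uptake and then as an accumulation of sodium ions, and plants answer with osmotic adjustment, ion transport and protein protection. Transcripts that move within the first hours are commonly those of signalling, whereas later ones often belong to acclimation and to the upkeep of proteins. Small heat shock proteins are chaperones that bind unfolding proteins and keep them from aggregating.

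On the FPKM as deposited, clusters that fitted the rule well were few. Of the 20753 clusters, 8281 stayed within 1 of control at 6 h and 12 h in females, 4801 in males and 2287 in both sexes, which was 11.0% of all. Only 96 of these 2287 steady clusters were highest at 24 h in both sexes. The remaining 4 members had a score of exactly 0 and were taken from 5 tied clusters in the order of their identifiers. The label of clusters highest at 24 h in both sexes did not hold for those 4, because 2 of them were listed at 0 in all 12 female libraries and 2 in all 12 male libraries. By comparison, 849 of the steady clusters were lowest at 24 h in both sexes, 7 of them by at least 1, with a largest drop of 1.53 on the log2 scale. These counts depended on the scaling of the libraries. With libraries scaled by median-of-ratios factors, 4016 clusters were steady in both sexes. Of these, 554 had a score above 0 and 9 a score of at least 1. Clusters lowest at 24 h were not counted under that scaling.

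**Figure D1:**
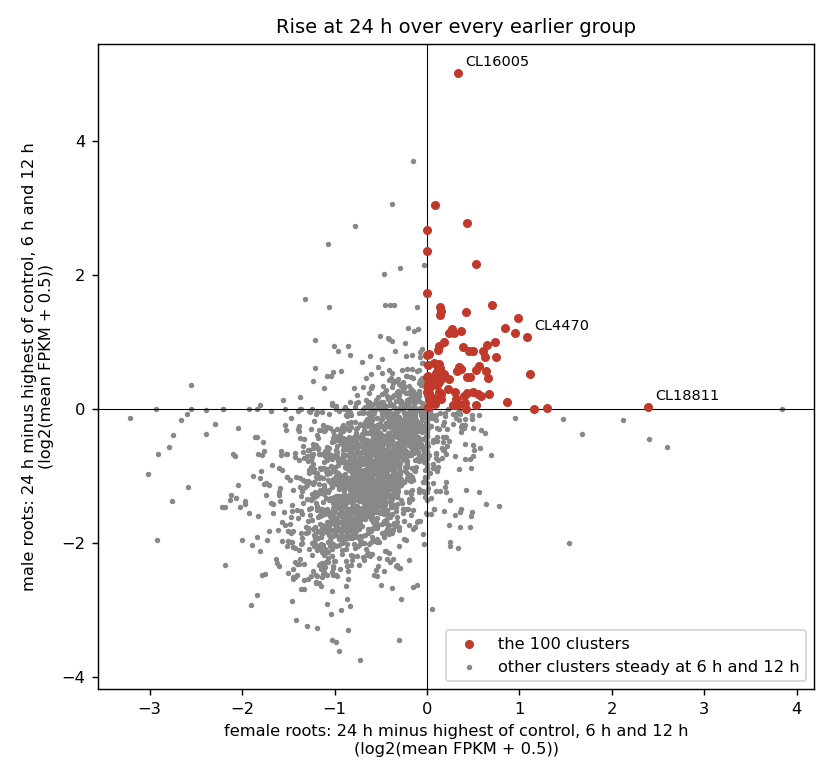
Rise at 24 h over the highest of control, 6 h and 12 h in females (x axis) and in males (y axis), both as differences of log2(mean FPKM + 0.5), with the 100 clusters in red and the other steady clusters in grey. The 100 clusters fill the upper right corner, and 1 of them, CL4470, lies past 1 on both axes.

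On the FPKM as deposited, the rises were small for most of the 100. The median score was 0.14, the highest was 1.07, 15 members reached 0.5 and 37 stayed under 0.1. The median rise over the highest earlier group was 0.23 in females, a 1.18-fold step, and 0.48 in males, a 1.40-fold step. Rises of at least 1 were found in 5 members in females and in 20 in males, and the rise was the larger one in males for 76 members and in females for 24. The group nearest below 24 h differed by sex as well. In females it was 12 h for 56 members, 6 h for 22 and control for 22, while in males it was 6 h for 53, 12 h for 29 and control for 18. With libraries scaled by median-of-ratios factors, the median rise of the same members was 0.60 in females and 1.15 in males. Under that scaling 96 of the 100 were highest at 24 h in both sexes, but only 49 were still steady at 6 h and 12 h. The factors, by which FPKM were divided, ran from 0.64 in male 24 h replicate 1 to 1.51 in male control replicate 2.

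Against control alone, the 24 h means stood at least 1 higher on the same log2 scale in 25 members in females and in 50 members in males. Females had 44 members above control at 6 h and 67 by 12 h, and males had 74 above control at 6 h, more than the 56 found by 12 h. Genes with 1 FPKM or more in 3 or more libraries were tested, which left 95 members, whose median log2 ratio of 24 h to control was 0.65 in females and 1.04 in males. Of these, 23 were called higher at 24 h than in control in females, beside 9.01% called higher and 31.6% called in either direction among all 95202 genes tested there. In males 48 of the 95 were called higher, beside 12.1% called higher and 39.9% called in either direction. A call means an adjusted p of at most 0.05 from limma on log2(FPKM + 0.5) with a log2 ratio of at least 1. The rule had already asked for a 24 h mean above control, so the direction and the share of these calls were set by it and nothing is read from them.

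The library values overlapped between 24 h and earlier groups in many members. All 3 libraries at 24 h lay above the 9 other libraries of the sex in 61 members in females, beside 5.13% of all clusters, in 64 members in males, beside 3.98%, and in 40 members in both, beside 1.76%. In males the overlap was mostly with 6 h. With the 3 male 6 h libraries left out, a choice made after seeing the data, the count in males was 84. Under median-of-ratios scaling the counts were 88 in females and 91 in males, for which the share over all clusters was not computed. The members together took 1.27 to 1.29% of all FPKM in female libraries at 24 h, against 0.715 to 0.730% in female control libraries. In males they took 1.47 to 1.49% at 24 h, against 0.575 to 0.589% in control. The 5 members with the highest mean over the 24 h libraries held 32.6 to 44.0% of the members' sum in each of the 24 libraries.

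**Figure D2:**
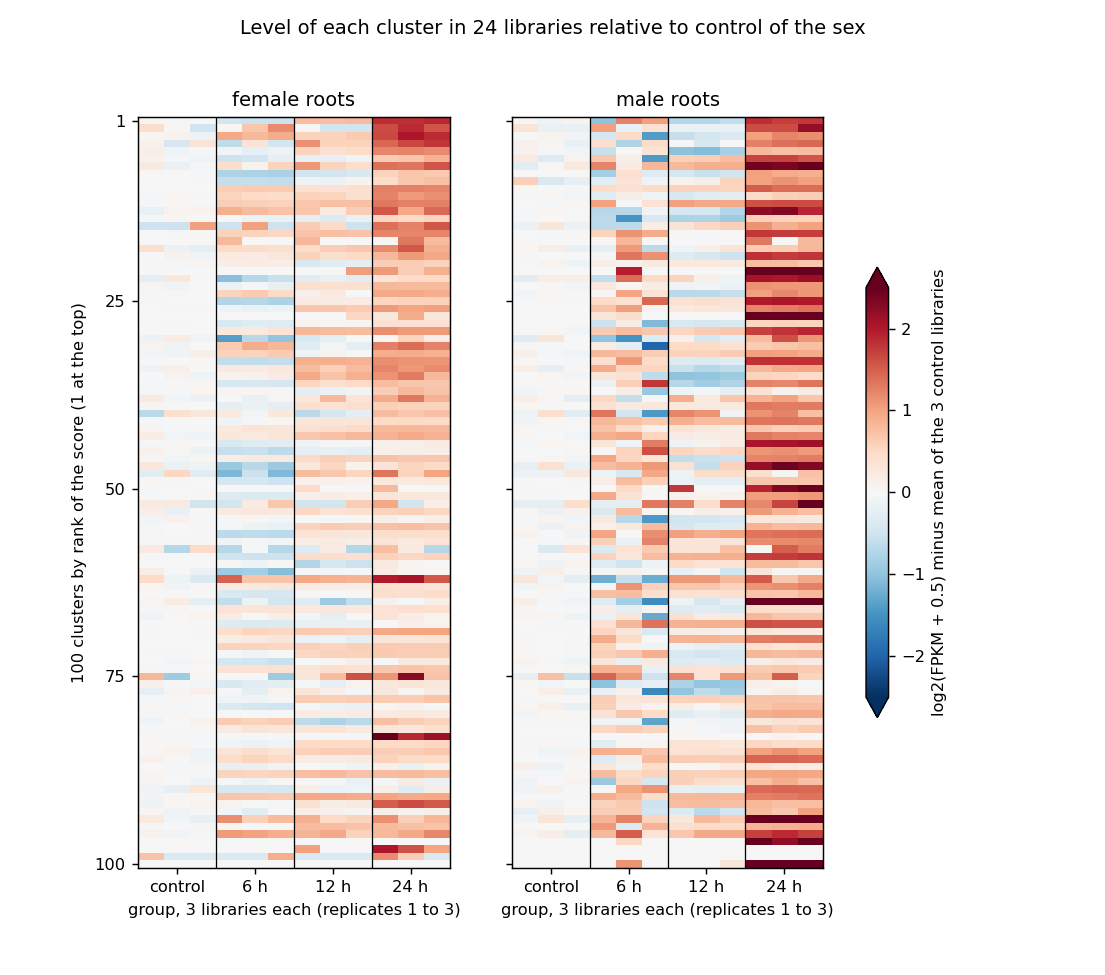
The 100 clusters by rank of their score (rows) in the 24 libraries (columns), in females on the left and in males on the right, coloured by log2(FPKM + 0.5) minus the mean of the 3 control libraries of the sex, with colours saturated beyond 2.5 in either direction. The 24 h columns are the reddest in both sexes, many female 12 h columns are already pale red, and the 3 male 6 h columns differ from each other within a row.

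CL4470 had the highest score, and it was the only member past 1 in both sexes. In females it had 218.79, 208.47 and 215.05 FPKM in control, 154.41, 146.85 and 150.17 at 6 h, 366.29, 362.79 and 368.97 at 12 h, then reached 770.60, 763.41 and 793.16 at 24 h. In males it had 121.97, 111.53 and 125.91 FPKM in control, 59.02, 284.96 and 244.42 at 6 h, 72.66, 72.47 and 78.18 at 12 h, then reached 429.08, 399.32 and 410.50 at 24 h. All 3 libraries at 24 h lay above every other library of their sex. The earlier groups did not run alike, since females already exceeded control at 12 h while males were under control then. The 24 h mean over control was 1.85 higher in females and 1.78 higher in males (difference of log2(mean FPKM + 0.5)).

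CL4433, the second by score, had low levels throughout. At 24 h it had 1.65, 2.04 and 1.57 FPKM in females and 1.23, 1.25 and 2.08 FPKM in males. No earlier library exceeded 1.08 FPKM, which was a female 6 h library, and all 3 male 12 h libraries were listed at 0. The groups at 24 h did not overlap with earlier groups in either sex, but at this level the values may rest on few fragments, whose number is unknown.

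The end of the list was set by ties at 0. CL18445, at rank 99, was listed at 0 in all male libraries and had 0.96, 0.48 and 0 FPKM in the female 24 h libraries. CL7665, at rank 100, was listed at 0 in all female libraries and had 3.80, 4.62 and 3.38 FPKM in the male 24 h libraries, where no earlier male library exceeded 0.59. CL8491, the first cluster outside, with the same score of 0, was listed at 0 in all male libraries and had 7.20, 6.84 and 6.64 FPKM in the female 24 h libraries, where a single earlier female library was above 0, at 0.05. CL19183, the next one, had a score of -0.0016, with a mean of 148.4 ± 4.3 FPKM at 24 h and of 148.6 ± 0.9 FPKM at 12 h in females (SD, n = 3 each). Members and clusters on either side of the border thus had nearly equal scores and quite different levels.

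Levels spanned several orders of magnitude. The median of the members' mean over the 6 libraries at 24 h was 39.6 FPKM, with 22 members at 100 FPKM or more, 69 at 10 or more and 4 under 1. CL19870 was the highest. In females it had 630.37, 675.13 and 682.63 FPKM in control, 1071.93, 1061.00 and 1049.48 at 6 h, 1291.43, 1297.12 and 1252.70 at 12 h, then reached 1313.31, 1258.30 and 1293.84 at 24 h. The 12 h and 24 h libraries of females overlapped, so its place among the 100 rested on a rise of 0.0091 there. In males it had 1545.07, 1590.96 and 1655.73 FPKM at 24 h, all above the earlier libraries, the highest of which was 1211.19 at 6 h.

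CL20198 followed, with 770.28, 751.47 and 745.22 FPKM in females at 24 h, above 641.53, 646.36 and 633.37 at 12 h. Its female 6 h libraries, at 225.93, 226.48 and 227.64 FPKM, were the lowest of the sex. In males its 24 h libraries held 1022.49, 1029.41 and 1030.57 FPKM, above 388.41, 614.68 and 398.33 at 6 h. The male 12 h libraries, with 229.32, 225.06 and 234.88 FPKM, were the lowest. The 24 h groups stood clear of all others in both sexes, and the order of control, 6 h and 12 h was different in each sex. The lowest members were CL18445 and CL6507. CL6507 was listed at 0 in 1 of the 3 libraries at 24 h in each sex and did not exceed 0.75 FPKM in any library.

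**Figure D3:**
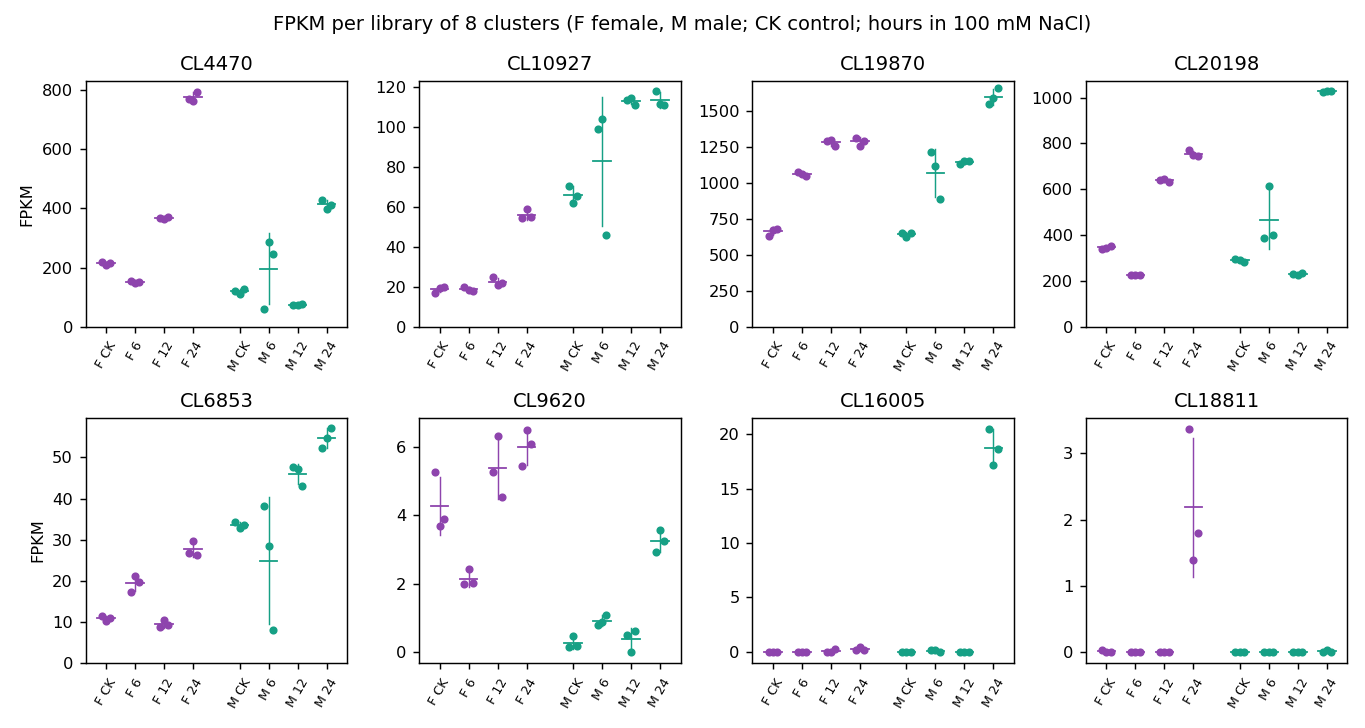
FPKM per library (y axis, linear, from 0) of 8 of the 100 clusters by sex and time (x axis), each point a library, each horizontal line the mean of 3 libraries and each vertical line 1 SD on either side. CL4470 and CL20198 stand clear at 24 h in both sexes, CL16005 is near 0 outside male 24 h, CL18811 is near 0 outside female 24 h, and the male 6 h libraries are spread widely in 5 of the 8 panels.

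A single member had a gene annotation in the study's supplementary tables, and the files name no other. CL6853, at rank 31, was annotated as an 18.5 kDa class I heat shock protein, one of the small chaperones described above. In females it had 11.58, 10.21 and 11.00 FPKM in control, 17.39, 21.10 and 19.80 at 6 h, 8.81, 10.46 and 9.26 at 12 h, then reached 26.89, 29.73 and 26.34 at 24 h. In males it had 34.31, 32.91 and 33.71 FPKM in control, 38.15, 28.51 and 8.10 at 6 h, 47.58, 47.22 and 43.12 at 12 h, then reached 52.38, 54.58 and 57.16 at 24 h. Its 24 h libraries lay above all others of the sex in both sexes. Females had a first, smaller peak at 6 h, whereas males were above control from 12 h. The control libraries of females, between 10.21 and 11.58 FPKM, lay below every male library except 6 h replicate 3.

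The tables annotate 56 clusters of the assembly. With CL3595 and CL3276 left out of the count, 5 annotated clusters were steady at 6 h and 12 h in both sexes. The other 4 ranked below the 100. They were CL4614, a mitochondrial heat shock 70 kDa protein, at rank 171, CL20529, annexin D5, a calcium-dependent membrane-binding protein, at rank 237, CL2217, sodium/hydrogen exchanger 6, an antiporter of endosomal membranes, at rank 480, and CL4816, a calmodulin-binding receptor-like cytoplasmic kinase, at rank 634. CL4614, a chaperone like CL6853, was not highest at 24 h. In females it averaged 18.2 ± 0.5 FPKM in control, 27.5 ± 0.7 at 6 h, 21.7 ± 0.1 at 12 h, with 26.5 ± 1.0 at 24 h (SD, n = 3 each). In males its control mean was 49.6 ± 1.2 FPKM, its 6 h mean 28.7 ± 15.6, its 12 h mean 68.0 ± 0.5 and its 24 h mean 62.3 ± 0.4 (SD, n = 3 each). Its peak was at 6 h in females and at 12 h in males. The functions of the other 99 members were not analysed here.

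The difference between sexes was not a term of the rule, although the rule did use the 24 h level of each sex, and it was tested at each stage with limma over all genes. Females differed from males in 11 of the 95 tested members in control (6 higher, 5 lower), beside 38.1% of all genes (22.4% higher, 15.7% lower). The count was 4 at 6 h (1 higher, 3 lower), beside 33.5% (25.3% higher, 8.19% lower), and 20 at 12 h (14 higher, 6 lower), beside 49.8% (24.6% higher, 25.2% lower). At 24 h it was 20 again, with 1 higher and 19 lower in females, beside 21.8% (13.7% higher, 8.08% lower). Other steady clusters were called in 16.4% of cases in control, 7.01% at 6 h, 22.6% at 12 h and 11.2% at 24 h. The members' shares at these stages were 11.6%, 4.21%, 21.1% and 21.1%. At 24 h, 8.48% of the other steady clusters were higher and 2.72% lower in females. The median of the members' log2 ratio of females to males at 24 h was -0.17, against 0.08 over all genes, and in control it was 0.04, against 0.05.

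Some of the 95 members passed the filter on low values only through their 24 h libraries, and a member of that kind that is present in 1 sex has to differ between sexes at 24 h. Among the 85 that passed without the 24 h libraries, a choice made after seeing the data, 12 were called, all lower in females, beside 20% of the genes that passed in that way (13.6% higher, 6.42% lower). Since the 24 h levels served to choose the members, the 24 h counts are a description. With libraries scaled by median-of-ratios factors, in place of the FPKM as deposited, 97 members were tested and 30 differed at 24 h (1 higher, 29 lower in females), beside 26% of all genes. Under that scaling 15 differed in control (12 higher, 3 lower), beside 33.4%, and 16 at 12 h (7 higher, 9 lower), beside 51%. The split between directions in control and at 12 h thus moved with the scaling.

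The calls were compared between control and 24 h. Of the 19 members called lower in females at 24 h, 3 were already called lower in control and 16 were not called there. None of the 6 members called higher in females in control was called at 24 h. Over all 4 stages 55 of the 95 members were called at none. CL10927 and CL8294 were called at all 4, each time lower in females, and were named for that after their values were seen. A call has a size limit, so a ratio close to it can be called at 1 stage only, as in CL6853 below. No stage was tested against another here, because the rule had used the change over time in each sex. The counts across stages were made for the members only. With no share over all genes or other steady clusters beside them, no trait of the members is read from them.

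**Figure D4:**
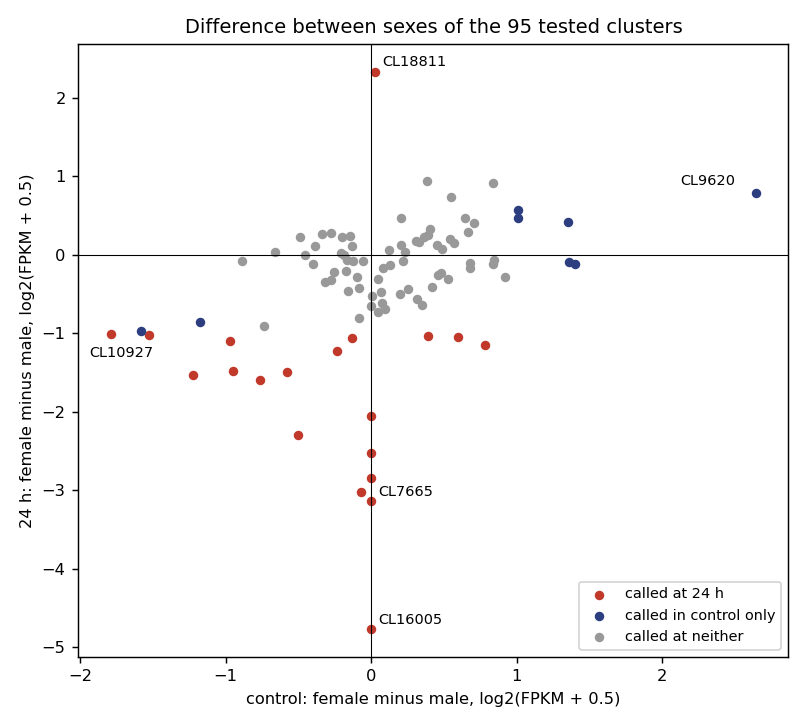
Log2 ratio of females to males for the 95 tested clusters in control (x axis) and at 24 h (y axis), from log2(FPKM + 0.5), with clusters called at 24 h in red, those called in control only in blue and the others in grey. Among the red points 1 lies above 0 and 19 lie below, and the blue points to the right, CL9620 the farthest, lie nearer to 0 at 24 h than in control.

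In control, CL9620 and CL15077 had the largest ratios in favour of females. The SEs here and below use 1 spread per gene over all 8 groups, the uneven male 6 h libraries included. CL9620 had 5.25, 3.69 and 3.90 FPKM in female control libraries, against 0.16, 0.48 and 0.17 FPKM in male control libraries, a log2 ratio of 2.64 (SE 0.25, adjusted p = 1.96e-08, limma). The groups did not overlap. At 24 h it had 5.42, 6.47 and 6.07 FPKM in females and 2.93, 3.58 and 3.24 FPKM in males, a log2 ratio of 0.79 that was under the size for a call. CL15077 had 407.84, 407.71 and 408.69 FPKM in female control libraries, against 155.85, 149.84 and 157.39 FPKM in male control libraries, a log2 ratio of 1.40 (SE 0.14, adjusted p = 8.12e-08, limma). At 24 h its libraries held 410.87 to 443.55 FPKM in females and 461.70 to 475.37 FPKM in males, so that males no longer stood below females.

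In the other direction, CL10927 had 17.02, 19.29 and 20.10 FPKM in female control libraries, against 70.62, 62.29 and 65.69 FPKM in male control libraries, a log2 ratio of -1.79 (SE 0.19, adjusted p = 1.95e-07, limma). At 24 h it had 54.52, 59.21 and 55.14 FPKM in females, against 118.17, 111.85 and 111.15 FPKM in males, a log2 ratio of -1.01 that is given as a description. The groups did not overlap at either stage. In males its 24 h libraries overlapped with those at 12 h, which held 111.42 to 114.70 FPKM. The heat shock protein cluster CL6853 followed in control, with a log2 ratio of -1.58 (SE 0.32, adjusted p = 0.000348, limma) from the libraries given above. At 24 h its ratio, also a description, was -0.97, just under the size for a call.

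CL16005 and CL7665 had the lowest ratios of females to males at 24 h, and CL18811 was the only member called higher in females. All 3 passed the filter only through the 24 h libraries of 1 sex, so their calls were fixed in advance and their levels are given with no test. CL16005 had 0.11, 0.45 and 0.11 FPKM in females at 24 h, against 20.50, 17.16 and 18.67 FPKM in males, and before 24 h it did not exceed 0.22 FPKM in any library of either sex. Its rise in males was 5.01 and in females 0.34 on the log2 scale. CL7665, listed at 0 in all female libraries, was given above for the border of the list. CL18811 had 3.37, 1.39 and 1.79 FPKM in females at 24 h, against 0, 0.03 and 0 FPKM in males, and outside female 24 h it did not exceed 0.03 FPKM in any library.

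CL11788 had the third lowest ratio and was the lowest among the members that passed the filter without the 24 h libraries, and it was named for that after its values were seen. At 24 h it had 2.29, 2.11 and 2.42 FPKM in females, against 22.89, 22.71 and 20.41 FPKM in males, a log2 ratio of -3.02. No test is given with this ratio, since the 24 h levels served to choose the members. The groups did not overlap. In control it had 2.20, 2.44 and 1.68 FPKM in females, against 2.52, 2.12 and 2.03 FPKM in males, and these groups overlapped. Its female 24 h libraries overlapped with the female control libraries, so that among females it was near control at 24 h.

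The libraries of the male 6 h group were uneven. Over the 3 male 6 h libraries the median range of a member was 0.92 on the log2 scale, and in the 7 other groups it was 0.10 to 0.12. Over all steady clusters the median range at male 6 h was 0.80. Of the 100 members 59 stayed within 1 of male control in all 3 male 6 h libraries, beside 62.7% of steady clusters. In females 91 members stayed within 1 of female control in all 3 female 6 h libraries, beside 91.6%. Replicate 1 was over 1 above control in 6 members and over 1 below in 3, replicate 2 in 13 and 2, and replicate 3 in 12 and 11. The median of the members against male control was 0.27 in replicate 1, 0.35 in replicate 2 and 0.21 in replicate 3, above control in each. In 32 members at least 1 male 6 h library was at or above the lowest male 24 h library.

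CL10389 and CL4470 were the most uneven. CL10389 had 4.23, 0.86 and 0.19 FPKM in the male 6 h libraries, so that replicate 1 exceeded all 3 male libraries at 24 h, which had 3.54, 3.92 and 2.63. In CL4470, given above, replicate 1 was below male control and replicates 2 and 3 were above it. A mean over these 3 libraries therefore put both clusters near control although no single library was close to it in CL4470. Without single male 6 h libraries the rule kept 82 to 87 of the 100. With the whole group left out it kept 35, but this also takes away a condition and a competing maximum, and leaving out the female 6 h, female 12 h or male 12 h group, chosen after seeing the data, kept 72, 51 and 40. The part of the uneven libraries in these counts was not tested.

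A cluster sums several contigs, and the contig with the highest mean often changed. In members with at least 2 contigs it held a median of 44.4% of the level at 24 h in females and 43.7% in males. The members held 1162 contigs, between 1 and 55 each, with a median of 5.5, and 95 had at least 2. Steady clusters had a median of 5 contigs and all clusters a median of 3. Where a cluster had at least 2 contigs and at least 1 FPKM in both groups, the contig of the highest mean was compared. Females and males shared this leading contig at 24 h in 34 of 85 members (40.0%), beside 46.4% of steady clusters and 46.9% of all clusters. In control the sexes shared it in 26 of 76 members (34.2%), beside 47.3% and 44.7%, so the lower share was not limited to 24 h. Between 24 h and control it was shared in 53 of 78 members in females (67.9%), beside 78.9% and 78.4%, and in 21 of 79 members in males (26.6%), beside 46.1% and 46.7%.

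**Figure D5:**
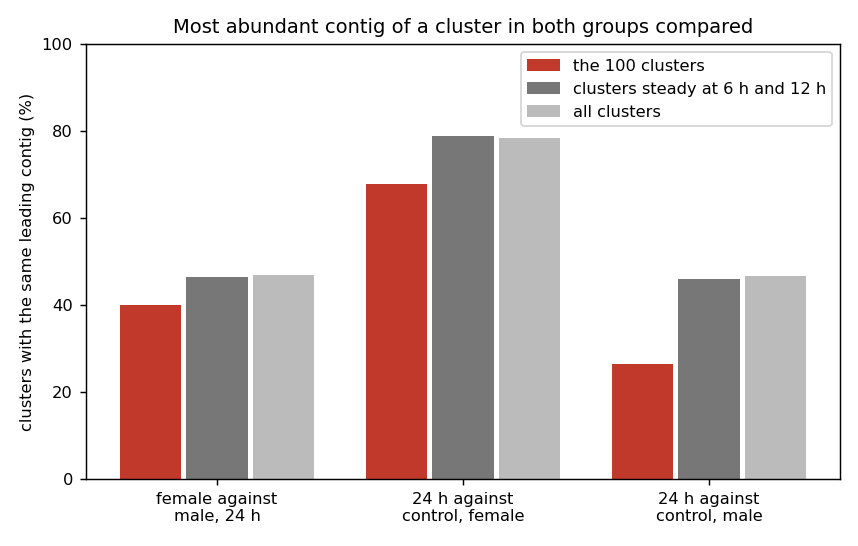
Share of clusters (y axis, in percent, from 0) whose most abundant contig was the same in the 2 groups compared (x axis), for the 100 clusters in red, the steady clusters in dark grey and all clusters in light grey. The red bar is the lowest in each of the 3 comparisons, at 40.0%, 67.9% and 26.6%.

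Among members of high level, CL19870 and CL20198 had different leading contigs in the sexes at 24 h. In CL19870, contig 48 led in females at 24 h with 257.7 FPKM, or 20.0% of the cluster, while contig 32 led in males with 294.2 FPKM, or 18.4%. In CL20198, contig 12 led in females with 127.2 FPKM, or 16.8%, and contig 6 in males with 181.2 FPKM, or 17.6%. The leading contig thus held 16.8 to 20.0% of the level at 24 h in both clusters. CL4470 and CL15077 had the same leading contig in both sexes, contig 5 in each. It held 539.5 FPKM in females and 286.7 FPKM in males at 24 h in CL4470, 69.5% and 69.4% of the cluster, and it also led at every other stage. In CL15077 it held 383.8 FPKM in females and 400.2 FPKM in males, 89.3% and 85.8% of the cluster, and led at every stage too.

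The rule was also applied to single contigs. Of the 1157 contigs in members with at least 2, 91 (7.87%) met it on their own with a score above 0, beside 1.09% of the contigs of all clusters with at least 2, and the members had been chosen for the sum of these contigs. The 91 lay in 55 members, and in 15 members the leading contigs of both sexes did so. Tested one by one at 24 h, 465 of 966 contigs of members differed between females and males (205 higher, 260 lower in females), or 48.1% beside 29.1% of all contigs and single unigenes, whereas in control 385 of 966 did (205 higher, 180 lower), or 39.9% beside 41.4%. Contigs called in both directions within a cluster were found at 24 h in 54 of 83 members with at least 2 tested contigs, beside 36.9% of other steady clusters and 24.6% of all clusters, and in control in 55 of 83, beside 43.1% and 28.4%. Members had a median of 7 tested contigs there, other steady clusters 5 and all clusters 3, and a contig too can pass the filter through 24 h libraries alone. The part of both in the counts was not tested. Contigs of a cluster are near copies that can share reads, so their single values are uncertain where the assignment of reads could split them.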

How the data were processed

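Per the labels and the study's methods, root RNA was sequenced with BGI libraries, assembled de novo with Trinity and clustered into CL clusters and single unigenes. The aligner and quantifier are not given in the sources used. Deposited values are FPKM per contig for each library (the methods name RPKM). Of low values, 55.7% lay within 0.15 of a whole number of steps, so fragment counts were not recovered and the depth is unknown.

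Contigs were summed per cluster, the score was computed with a pseudocount of 0.5, and genes that reached 1 FPKM in 3 or more libraries (95202 of 139844) were tested on log2(FPKM + 0.5) with limma 3.58.1 in R 4.3.3, with 1 mean for each of the 8 groups and Benjamini-Hochberg adjustment. A fold on this scale understates the change of low genes. The members, lists and named genes (score, level, sex ratio, male 6 h range, leading contig, annotation) were chosen with earlier results of these data known. Alternatives changed the pseudocount, filter, scaling, steady limit, samples and replicate block. The methods state 3 independent experiments for each treatment. The p-values and SEs use 1 spread per gene between samples within groups. It was shared by all 8 groups, so it took in the uneven male 6 h libraries. Without those libraries the SE in control was 0.07 in place of 0.32 for CL6853 and 0.02 in place of 0.14 for CL15077. For CL9620 it was 0.24 in place of 0.25.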

Additional observations from a re-analysis of the deposited data

How the results depend on the processing

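The log2 ratio between sexes in control of CL9620, CL15077, CL10927 and CL6853 kept its direction under the alternatives tried. Those of CL16005, CL7665 and CL18811 at 24 h did so too. Their direction was fixed in advance, because each was at or near 0 in 1 sex, so nothing is read from it. The alternatives were not run for the values of other named members. Of the 100 members, 42 were kept with median-of-ratios scaling, 24 with a steady limit of 0.5, 35 without the male 6 h group, 51 without female 12 h, 40 without male 12 h and 82 to 99 leaving out 1 library. Under that scaling the median of all genes at 24 h against control was -0.07 in females and 0 in males, in place of -0.30 and -0.08. Members called at 24 h against control numbered 59 in females, in place of 23, beside 12.4% of all genes called higher and 27.2% called in either direction. In males they numbered 96, in place of 48, beside 20.1% and 35.7%. The rule set the direction of all such calls against control, so nothing is read from them here or below. Under the same scaling 38 members stayed within 1 of male control in all male 6 h libraries, in place of 59. Between sexes at 6 h the count of 4 was 2 with only those groups and 7 without male 6 h replicate 1. At 24 h it was 12 among members that passed the filter without the 24 h libraries. Leaving out 1 library gave 22 to 25 and 46 to 50 members called at 24 h against control in females and males, and between sexes 9 to 12 in control, 3 to 7 at 6 h, 20 to 22 at 12 h and 17 to 20 at 24 h. Leaving out 1 replicate number gave 68 to 72 members without overlap in females and 72 to 74 in males, a shared leading contig in 29 to 35 members between sexes, 56 to 58 in females and 20 to 23 in males, and 59 to 61 within 1 of male control at male 6 h. Deviations of samples with the same replicate number correlated at -0.0098 to 0.0099 over all tested genes. That gave no sign of pairing by replicate number, but it cannot exclude one, since a pairing that touches few genes would not show in it. With the replicate block the counts were 23, 48, 11, 4, 20 and 20, as without it. FPKM gives no depth, so no detection limit could be set for clusters listed at 0.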
